A study of Mus musculus with 4 samples.

Results

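The interferon-stimulated genes are genes that cells switch on when an interferon binds its receptor, and 33 of them were followed here as a fixed list of symbols among the 55487 genes of the deposited tables. All 33 were found, from the IFIT proteins, ISG15 and the membrane restriction factors to the OAS family, RNA sensors, PARP proteins, guanylate-binding proteins and the transcription factors that drive the response. Their unique molecular identifiers (UMIs, each counting 1 captured RNA molecule) were summed per library and cell class and given as counts per 1000000 UMIs of that class (CPM). All 33 stayed in the sums, and 3 of them, Oas1a, Oas2 and Dhx58, were under a mean of 10 CPM in endothelial-like cells.

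The study asked what loss of the transcription factor KLF4 from endothelial cells and advancing age do to the mouse blood-brain barrier. Single cells of enzymatic brain digests enriched for endothelium were sequenced as 4 libraries, 1 for each combination of young or old age and genotype. The groups labelled EC-K4KO carried a floxed Klf4 gene and the tamoxifen-inducible Cdh5-CreERT2 driver, which is active in endothelium of every organ, and the WT Cre littermates carried the driver without the floxed gene. Both genotypes were on a C57BL/6J background, both sexes were used and both received tamoxifen, so the comparison holds the Cre driver and the drug in common, while the number of mice behind each library is not given in the sources used here. Where 4 values are listed in a row, they follow the order young WT Cre, young labelled EC-K4KO, old WT Cre, old labelled EC-K4KO.

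The libraries held between 30655769 and 88812581 UMIs in 5324 to 8358 barcodes, and 20737 cells were kept, between 4146 and 6555 per library. Although the labels name brain endothelial cells, 10102 of the kept cells were endothelial-like by their markers (2721, 3326, 2156 and 1899 cells), and the rest fell into mural, glial, neuronal, fibroblast, immune and epithelial classes or, for 343, 641, 325 and 295 cells, into clusters that stayed unnamed. The summed level of 8 endothelial markers in the endothelial-like cells was 22949, 22963, 20755 and 19181 CPM, and none of the 8 was at 0. Klf4 itself was at 1712, 3282, 2096 and 3295 CPM in endothelial-like cells, higher in both libraries labelled EC-K4KO than in their WT Cre counterparts. That goes against the label, and whether the counted reads lie inside the deleted stretch is not known, so these libraries are named by their label throughout. Exchanged labels would give every label ratio the opposite sign, and whether labels were exchanged was not tested. Neutrophil-like cells, which the study also compared between genotypes, numbered 12, 35, 26 and 251 of 4496, 6555, 5540 and 4146 kept cells, more in each library labelled EC-K4KO. The 8 endothelial markers summed to 7852, 12283, 3645 and 220 CPM in these neutrophil-like cells. The young numbers are small, and the part of mixed cells in them was not tested. With 1 library per group, intervals given for a pair of libraries cover counting error only, and between 6 and 10 kept cells shared a barcode sequence in any pair of libraries.

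Interferons of type I (alpha and beta) act through the receptor chains Ifnar1 and Ifnar2, and interferon gamma acts through Ifngr1 and Ifngr2. Type I signalling brings STAT2 and IRF9 into a complex that binds the interferon-stimulated response element (ISRE), whereas interferon gamma acts through the gamma-activated site (GAS). Brain endothelium carries both receptors and faces circulating interferon directly, and many of the genes keep a low tonic level without infection.

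The promoters of 6 members that carry the results below are shown with the letters searched for, since they separate ISRE-bearing members from Irf1. Promoter sequences of RefSeq for GRCm38.p6, from 250 bases before to 50 bases after the transcript start, were found for 26 of the 33 members. The ISRE was searched as GAAA followed by any 2 bases and a further GAAA, and the GAS as TTCNNNGAA, both on either strand, and positions count from the transcript start at +1. An ISRE match lay in 17 of the 26 promoters (65.4%), against 3.99% of the 27025 genes with a promoter sequence. A GAS match lay in 8 of the 26 (30.8%), against 9.55% of all. Capitals mark ISRE matches in the first 5 sequences and the GAS match in the Irf1 sequence, where no ISRE match was found. The Ifit1 window is chr19:34640639-34640938 on the plus strand with matches starting at -104 and -85, and the Isg15 window is chr4:156200769-156201068 on the minus strand with 3 overlapping matches from -78, -72 and -66. For Ifitm3, at chr7:141010695-141010994 on the minus strand, the matches started at +3 and +20, and a GAS match at +14 overlapped the one at +20. For Bst2, at chr8:71537423-71537722 on the minus strand, they started at -130 and -124, with an overlapping GAS match at -136. Gbp2, at chr3:142620413-142620712 on the plus strand, had 1 match at -59, and Irf1, at chr11:53769764-53770063 on the plus strand, had its GAS match at -90. A match describes the letters and is not evidence of binding.
Ifit1: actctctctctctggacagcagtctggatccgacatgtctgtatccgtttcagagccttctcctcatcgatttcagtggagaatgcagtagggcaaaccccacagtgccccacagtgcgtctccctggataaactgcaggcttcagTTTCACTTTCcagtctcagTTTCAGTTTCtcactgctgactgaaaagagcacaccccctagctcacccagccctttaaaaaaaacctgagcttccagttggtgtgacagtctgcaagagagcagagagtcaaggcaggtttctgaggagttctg
Isg15: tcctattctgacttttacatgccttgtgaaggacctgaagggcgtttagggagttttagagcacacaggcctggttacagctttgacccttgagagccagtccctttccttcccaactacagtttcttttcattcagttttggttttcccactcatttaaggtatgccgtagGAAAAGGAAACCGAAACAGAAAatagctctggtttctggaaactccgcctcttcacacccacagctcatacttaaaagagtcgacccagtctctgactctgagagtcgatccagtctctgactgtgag
Ifitm3: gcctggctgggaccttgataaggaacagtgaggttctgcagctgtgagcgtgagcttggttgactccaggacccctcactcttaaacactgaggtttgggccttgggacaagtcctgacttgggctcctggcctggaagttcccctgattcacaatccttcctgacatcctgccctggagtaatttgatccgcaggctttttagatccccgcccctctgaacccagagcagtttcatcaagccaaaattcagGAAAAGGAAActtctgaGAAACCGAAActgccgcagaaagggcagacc
Bst2: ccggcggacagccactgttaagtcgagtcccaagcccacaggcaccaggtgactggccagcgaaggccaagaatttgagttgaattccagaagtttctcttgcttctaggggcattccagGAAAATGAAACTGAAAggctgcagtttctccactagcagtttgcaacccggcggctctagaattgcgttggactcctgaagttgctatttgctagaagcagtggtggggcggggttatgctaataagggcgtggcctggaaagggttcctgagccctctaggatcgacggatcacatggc
Gbp2: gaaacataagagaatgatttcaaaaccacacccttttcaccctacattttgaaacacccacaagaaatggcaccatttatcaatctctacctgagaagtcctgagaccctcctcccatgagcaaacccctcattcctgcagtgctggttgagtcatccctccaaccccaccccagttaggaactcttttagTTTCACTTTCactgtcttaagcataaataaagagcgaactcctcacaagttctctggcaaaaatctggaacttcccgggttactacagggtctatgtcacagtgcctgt
Irf1: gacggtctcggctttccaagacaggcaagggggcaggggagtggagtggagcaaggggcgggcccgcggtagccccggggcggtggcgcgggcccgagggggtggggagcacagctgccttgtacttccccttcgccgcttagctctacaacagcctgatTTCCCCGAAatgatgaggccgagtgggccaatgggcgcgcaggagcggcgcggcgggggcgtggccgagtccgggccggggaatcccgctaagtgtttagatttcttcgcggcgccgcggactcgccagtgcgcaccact

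Several members sit side by side in the genome, and a few members share stretches of sequence with another gene. Ifit2, Ifit3, Ifit3b and Ifit1 lie within chr19:34550694-34650009, Gbp7, Gbp3 and Gbp2 within chr3:142530342-142638008, and Ifitm2, Ifitm3 and Irf7 within chr7:140954837-141266481 (mm10). Of the 91-base windows in the last 500 bases of each transcript, 26.1% for Ifitm2 and 42.2% for Oas1a were identical to a stretch of a gene that is not a member. For Ifit3, 6.34% matched Ifit3b. The levels of these 3 genes are therefore uncertain to that extent.

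In endothelial-like cells the 33 genes together made up 4825, 4844, 5369 and 5770.0 CPM, so both old libraries were above both young ones. On the log2 scale the old over young ratio was 0.15 (95% interval 0.14 to 0.17) in WT Cre and 0.25 (0.24 to 0.27) in the libraries labelled EC-K4KO. The ratio between the labels was 0.0058 (-0.0044 to 0.016) in young and 0.10 (0.089 to 0.12) in old libraries. The membrane factors Ifitm3, Ifitm2 and Bst2 supplied 44.2, 50.1, 54.9 and 57.6% of these UMIs. Without them the other 30 members summed to 2694, 2415, 2422 and 2448 CPM, and the old over young ratio turned to -0.15 (-0.17 to -0.14) in WT Cre and was 0.019 (-0.00047 to 0.039) in the libraries labelled EC-K4KO. Of the 3 membrane factors, Ifitm3 and Ifitm2 were higher in both old libraries than in both young ones, and Bst2 overlapped between ages.

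Taken gene by gene, the 30 members of at least 10 CPM had a median old over young log2 ratio of -0.30 in WT Cre and -0.13 in the libraries labelled EC-K4KO, beside -0.18 and -0.15 over all 8431 genes of that level. In WT Cre, 1 member was at least 1.5-fold higher with age and 4 were at least 1.5-fold lower, where 4.15% and 6.84% of all genes were. In the libraries labelled EC-K4KO, 1 was higher and 2 were lower, beside 4.22% and 5.63% of all genes. Between labels the members' median was -0.14 in young and -0.03 in old libraries, against -0.04 and -0.02 over all genes. No member was 1.5-fold higher with the label and 1 was 1.5-fold lower in young libraries, beside 1.33% and 1.14% of genes, and none reached 1.5-fold in old libraries, beside 1.41% and 1.26%.

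The age and label effects were then tested in an additive edgeR quasi-likelihood model over the 4 libraries, with Benjamini-Hochberg adjustment over 14933 genes. With age, 14 of the 33 members passed at an adjusted p under 0.05, 7 higher and 7 lower, where 19.1% of all genes passed (11.5% higher and 7.59% lower). DESeq2, which called 7.37% of genes, called 6 members, 5 higher (Irf1, Ifitm3, Ifitm2, Ifi27 and Isg15) and 1 lower (Ifit3b). The edgeR scaling centres the median age effect of all genes at -0.016, so its values lie above the CPM ratios by roughly the -0.18 and -0.15 of the medians above. This model has 1 residual degree of freedom per gene, the departure from additive age and label effects, and borrows its spread from all genes. With 1 library per group, its p-values do not measure the spread between replicate libraries or mice.

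**Figure D1:**
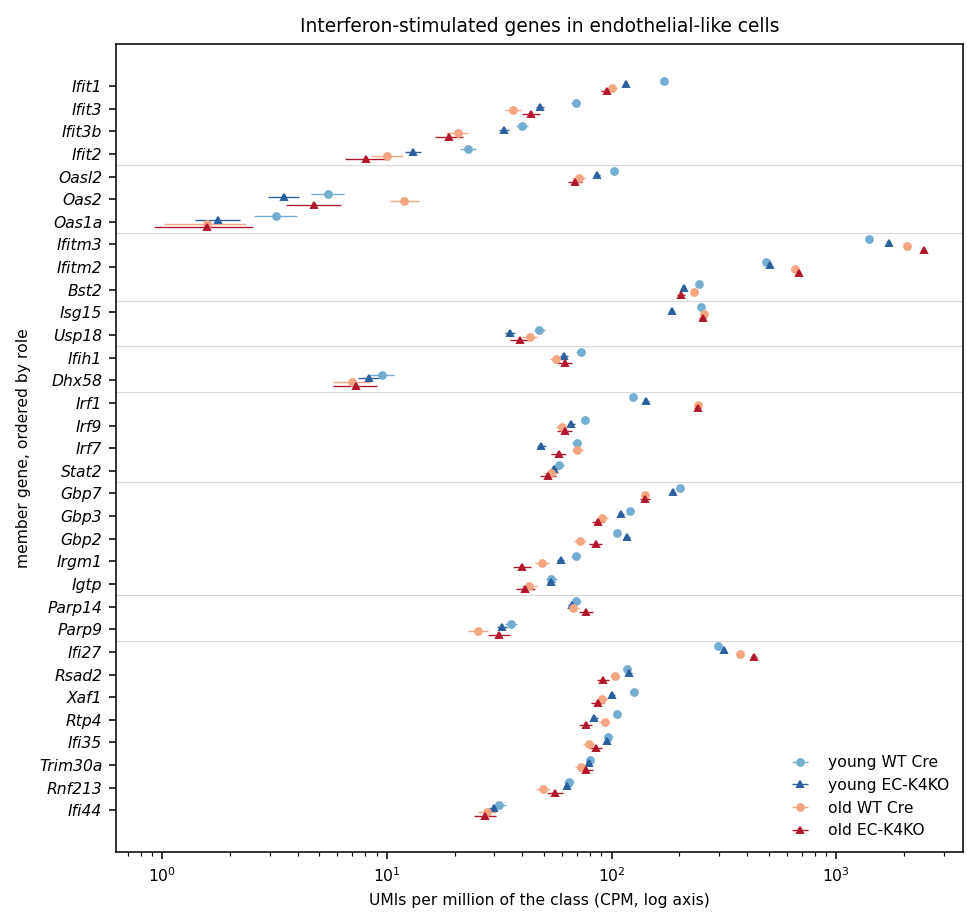
CPM of each of the 33 members (rows, grouped by role, log axis) in endothelial-like cells, 1 point per library with colour and shape for age and label. Ifitm3 lies highest in all 4 libraries (1400.2 to 2441 CPM) and the old libraries sit to the right of the young ones for Irf1, Ifitm3, Ifitm2 and Ifi27.

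The membrane restriction factors stop enveloped viruses from entering or leaving the cell, and among them Ifitm3 and Ifitm2 had the highest levels of the list. Ifitm3, an endosomal membrane protein that blocks virus fusion, was at 1400.2, 1714, 2061 and 2441 CPM. The old libraries lay above the young ones without overlap, and the model gave an age difference of 0.68 ± 0.096 (log2, SE, adjusted p = 0.0015 in edgeR). Its neighbour and paralog Ifitm2 was at 487, 505, 654 and 678 CPM and rose by 0.57 ± 0.082 (adjusted p = 0.0016 in edgeR). Bst2, also called tetherin, which holds budding virus particles at the cell surface, was at 244, 210.4, 231 and 203 CPM. Its libraries overlapped between ages, and its model value of 0.08 (adjusted p = 0.47 in edgeR) had the opposite sign of its CPM ratios of -0.08 and -0.05. Ifi27, a small membrane protein of mitochondria and the nuclear envelope, was at 297, 315, 374 and 429 CPM and rose by 0.54 ± 0.079 (adjusted p = 0.0019 in edgeR).

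Among the transcription factors, Irf1 stood apart. Irf1, a factor induced by interferon gamma and by NF-kB signalling, was at 125, 143, 241 and 241 CPM. Both old libraries were well above both young ones and equal to each other, a rise of 1.00 ± 0.082 (adjusted p = 8.02e-05 in edgeR). Irf7, the factor that amplifies type I interferon production, was at 69.9, 48.7, 70.4 and 58.2 CPM. Its age groups overlapped, and its model value of 0.28 ± 0.081 (adjusted p = 0.041 in edgeR) rests on the comparison within each label, where the CPM ratios were 0.01 and 0.26. Irf9 (76.1, 66.1, 60.4 and 62.0 CPM) and Stat2 (58.5, 55.4, 53.8 and 51.9 CPM), both of the ISRE-binding complex, did not pass with age.

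Of the 4 IFIT genes, whose proteins bind foreign RNA and block its translation, 3 passed as lower with age in endothelial-like cells, where 7.59% of all genes did. Ifit1 was at 170.5, 115, 101 and 95.4 CPM, Ifit2 at 22.8, 13.03, 10.03 and 8.09 CPM, and Ifit3b at 40.0, 33.03, 20.6 and 18.9 CPM. In each of the 3, and in Ifit3, the young WT Cre library was highest and both old libraries were lowest, and 57.3% of all genes of at least 10 CPM had both old libraries below both young ones. The model gave -0.37 ± 0.10 for Ifit1 (adjusted p = 0.036), -0.81 ± 0.14 for Ifit2 (0.0052) and -0.74 ± 0.098 for Ifit3b (0.0011), all in edgeR. Ifit3, at 69.2, 48.0, 36.4 and 43.9 CPM, had a like value of -0.38 that did not pass (adjusted p = 0.099 in edgeR).

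ISG15, a ubiquitin-like protein that is attached to other proteins, did not follow the IFIT genes. Isg15 was at 249.3, 185, 259 and 254 CPM, so the young library labelled EC-K4KO was low and the other 3 were alike. Its model value with age was 0.40 ± 0.096 (adjusted p = 0.020 in edgeR), whereas the CPM ratio was 0.05 (-0.0046 to 0.11) in WT Cre and 0.46 (0.39 to 0.52) in the libraries labelled EC-K4KO. Usp18, the protease that removes ISG15 and dampens the type I receptor, was at 47.5, 35.3, 43.2 and 38.9 CPM and did not pass (adjusted p = 0.28 in edgeR).

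The guanylate-binding and immunity-related GTPases attack vacuoles that hold pathogens and are typical targets of interferon gamma. Of their 5 genes, 3 passed as lower with age, where 7.59% of all genes did. Gbp7 was at 201, 187, 140.3 and 141 CPM, with no overlap between ages, and fell by 0.31 ± 0.074 on the log2 scale (adjusted p = 0.018 in edgeR). Gbp2 was at 105, 117, 72.3 and 84.9 CPM and fell by 0.35 ± 0.072 (adjusted p = 0.010 in edgeR). Irgm1, a regulator of this family, was at 69.1, 59.2, 49.1 and 39.9 CPM and fell by 0.38 ± 0.077 (adjusted p = 0.0096 in edgeR). Gbp3 and Igtp had values of -0.23 and -0.20 and did not pass (adjusted p = 0.053 and 0.095 in edgeR). The old libraries lay below the young ones for all 5 genes, beside the same 57.3% of all genes.

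The OAS family makes the short oligoadenylates that activate the nuclease RNase L. Oasl2, an OAS-like member of the family, was at 102, 86.1, 71.8 and 68.5 CPM and fell by 0.27 ± 0.075 (adjusted p = 0.034 in edgeR). Oas2 was at 5.47, 3.47, 11.9 and 4.75 CPM, high in the old WT Cre library alone. Its value of 0.98 ± 0.21 passed (adjusted p = 0.013 in edgeR) although the old library labelled EC-K4KO lay below the young WT Cre one. Within each label the old library was the higher one. How far the call rests on the old WT Cre library was not tested. Oas1a had between 17 and 82 UMIs per library and did not pass.

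The RNA sensor Ifih1, also called MDA5, was at 72.9, 61.3, 56.7 and 62.0 CPM and its partner Dhx58 at 9.49, 8.27, 6.99 and 7.26 CPM, and neither passed. Among the PARP proteins, which modify proteins with ADP-ribose, Parp14 was at 69.4, 66.3, 67.4 and 76.8 CPM (0.23, adjusted p = 0.074 in edgeR) and Parp9 at 35.6, 32.5, 25.4 and 31.5 CPM (-0.12, adjusted p = 0.50). Rtp4, a chaperone of receptor transport, was at 105, 83.7, 92.9 and 76.5 CPM and its age value was -0.0093. The remaining induced genes Rsad2 (the radical-forming enzyme viperin), Xaf1, Rnf213, Trim30a, Ifi35 and Ifi44 had age values between -0.19 and 0.056 and did not pass.

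No member passed with the genotype label in endothelial-like cells, where 1.85% of all genes did. By edgeR 10 members had an unadjusted p under 0.05, beside 1754 of 14933 genes. DESeq2 also called 0 members, with 4 unadjusted, beside 520 of 18834 genes. The lowest adjusted p-values were those of Irf7 (-0.38, 0.054), Oas2 (-0.92, 0.072), Ifit2 (-0.59, 0.085) and Rtp4 (-0.28, 0.11), all lower with the EC-K4KO label. In young libraries the label ratio on the CPM scale was -0.56 (-0.62 to -0.51) for Ifit1, -0.81 (-0.98 to -0.64) for Ifit2 and -0.43 (-0.48 to -0.38) for Isg15. In old libraries the same ratios were -0.08 (-0.19 to 0.039), -0.31 (-0.71 to 0.081) and -0.03 (-0.096 to 0.045). Whether the label ratio differed between ages was not tested.

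**Figure D2:**
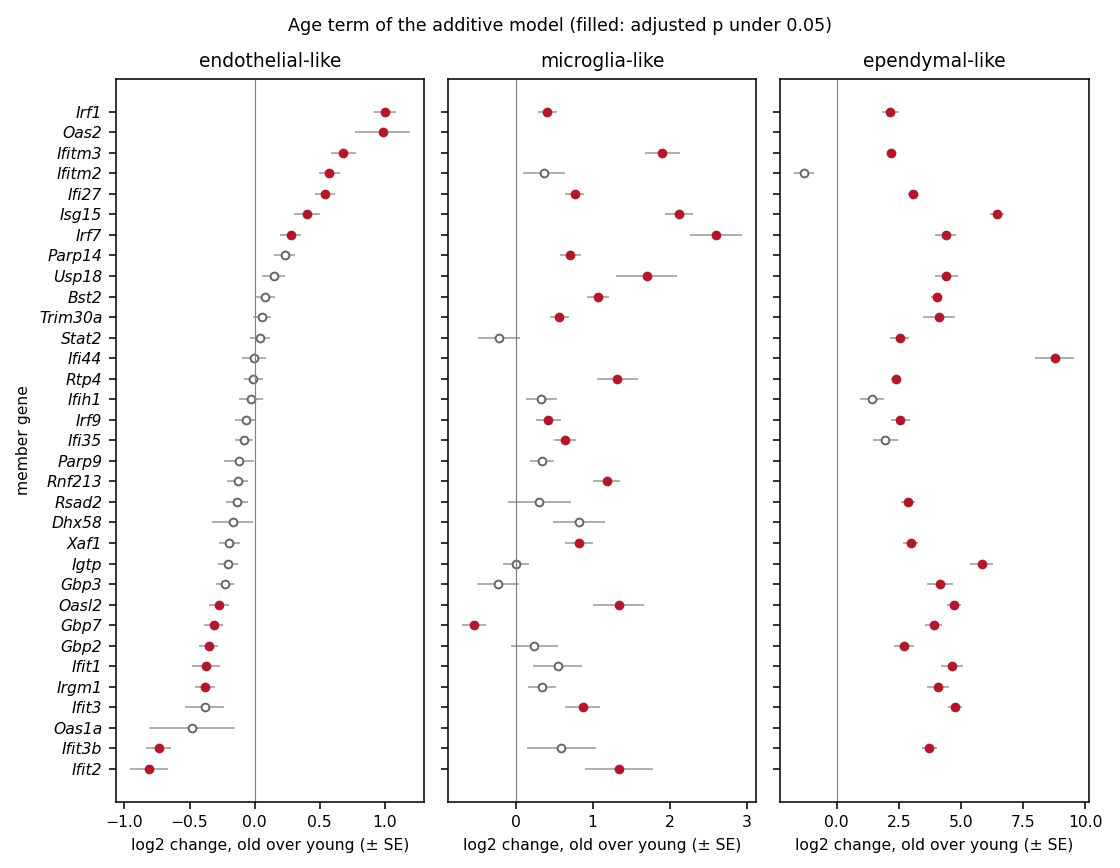
Age difference (log2, old over young) from the additive edgeR model for each member in endothelial-, microglia- and ependymal-like cells, with bars of 1 standard error and filled points for an adjusted p under 0.05. Endothelial values run from -0.81 for Ifit2 to 1.00 for Irf1 on both sides of 0, microglial values are mostly above 0, and the ependymal axis reaches several log2 units with 23 filled points, all above 0.

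The upstream and neighbouring genes of the pathway were read from a second list of 75 genes. In endothelial-like cells 64 could be tested by edgeR, and 10 were higher and 11 lower with age, beside 11.5% and 7.59% of all genes. DESeq2 called 7 of the list higher and 1 lower, beside 766 and 191 of all genes. Of 6 interferon ligands none could be tested, and Ifnb1 had 0 UMIs. None of the 4 receptor chains passed, with Ifnar1 at 203.7, 180.2, 219 and 186 CPM and Ifnar2 at 315, 251, 229 and 205 CPM. The chemokine Cxcl10, which draws T cells, was at 36.9, 33.4, 62.0 and 98.0 CPM and rose by 1.31 ± 0.15 (adjusted p = 4.72e-04 in edgeR). Ifitm1, a further gene of the IFITM group, rose as well, from 7.77 and 19.0 to 38.8 and 40.5 CPM (1.80 ± 0.23, adjusted p = 9.23e-04 in edgeR). The adaptor Tmem173, known as STING, rose by 1.22 and the feedback inhibitor Socs3 by 0.60, while Tgtp2 (-0.62), Trim21 (-0.65), Trim12c (-0.42) and Irgm2 (-0.35) were lower, all in edgeR. With the label 2 genes were lower, Slfn2 (-0.70, adjusted p = 0.027 in edgeR) and Lgals3bp (-0.40, adjusted p = 0.028), and none higher, where 1.85% of all genes passed. The count of lower genes became 0 with DESeq2 or without doublet removal and 1 by marker UMIs, and stayed at 2 in the other settings. With no filter on low counts 5 genes were higher.

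The endothelial-like class was made of 8 clusters, built without the members and the pathway genes, and their sums spread more widely than those of the libraries. The cluster led by Ackr1, a venous marker, and Lrg1 had the highest sum at 6433, 7191, 7212 and 8174 CPM, and the one led by Gkn3 and Fbln5, arterial genes, had 6253, 5985, 6249.7 and 6794 CPM. The largest clusters, led by Hmcn1 and Car4 and by Adm, had between 4013 and 4380 CPM. The Ackr1 rank rests on the membrane factors. Without Ifitm3, Ifitm2 and Bst2 that cluster had 2768, 2371, 2119 and 2223 CPM, below the Gkn3 and Fbln5 cluster at 2956, 2837, 2580 and 2939 CPM. The Ackr1-led cluster held 1.47, 3.58, 4.08 and 7.11% of the class. Without it the old over young ratio of the sum was 0.11 in WT Cre and 0.17 in the libraries labelled EC-K4KO, and the ratio between labels in old libraries was 0.020.

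Within clusters the leading members did not all behave alike. Ifi27 was higher and Gbp7 lower with age within both labels in each of the 6 larger clusters. Irf1 in the Adm-led cluster was at 84.5, 93.7, 193 and 195 CPM and in the Gkn3 and Fbln5 cluster at 102, 131, 230.2 and 253 CPM, both with the old libraries above the young. In the Hmcn1 and Car4 cluster, which holds capillary markers, Irf1 was at 78.8, 73.95, 64.5 and 58.6 CPM, and in the Ackr1-led cluster it was at 699, 513, 425 and 400.0 CPM, so the old libraries were below the young ones in both. Ifitm3 in the Hmcn1 and Car4 cluster was at 989.9, 1198, 1290.3 and 1297 CPM, an old over young log2 ratio of 0.38 in WT Cre and 0.12 in the libraries labelled EC-K4KO, beside 0.56 and 0.51 in the whole class. The Hmcn1 and Car4 cluster held 44.7, 33.3, 20.1 and 21.9% of the class, and the Adm-led one 20.6, 29.1, 36.6 and 36.0%, so a different cluster was the largest in the young and in the old libraries. A set of 9 early-response genes such as Fos and Atf3, which respond to tissue dissociation, summed to 9970, 13728, 14220 and 13172 CPM in the class. Their part in the Irf1 values was not tested.

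The UMIs were spread over most cells. After each cell was thinned to 1000 UMIs, the median endothelial-like cell held 4 member UMIs in every library. Cells with at least 10 member UMIs were 7.90% (exact 95% interval 6.92 to 8.98) in the young WT Cre library, 6.76% (5.93 to 7.67) in the young library labelled EC-K4KO, 8.998% (7.82 to 10.3) in the WT Cre and 10.7% (9.34 to 12.2) in the EC-K4KO-labelled old library. In microglia-like cells, which have a low level of these genes, that share was between 0 and 1.15%. For the 30 members without the membrane factors, cells with at least 8 UMIs were 4.15, 2.25, 2.60 and 2.42%, so the young WT Cre library had the largest share. No cell had to be left out for depth, while median depth before thinning was 6384, 9939, 4717 and 3768 UMIs per cell.

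**Figure D3:**
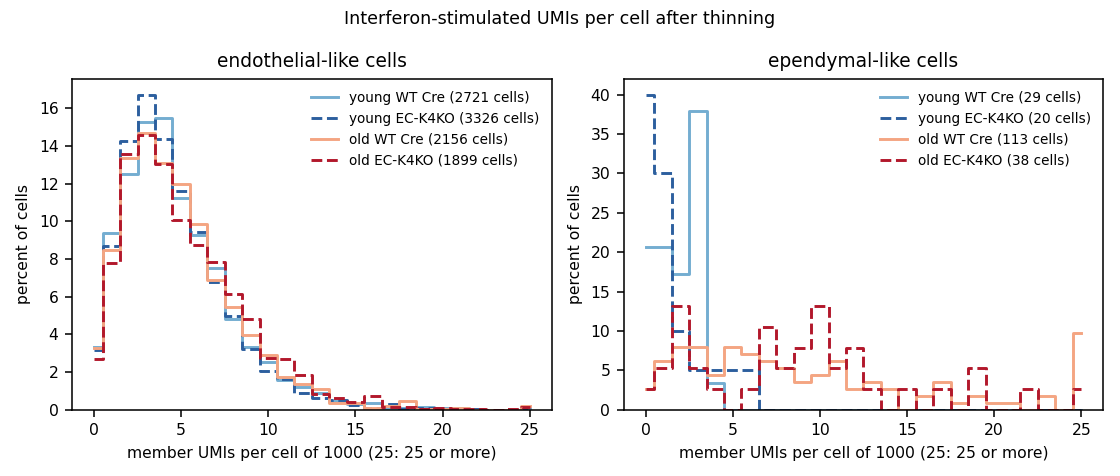
Share of endothelial-like cells (percent, vertical) by the number of member UMIs per cell after thinning to 1000 UMIs (horizontal, 25 standing for 25 or more), 1 line per library. All 4 lines peak at low counts around the median of 4 UMIs and run out in a thin tail with 6.76 to 10.7% of cells at 10 or more.

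Some members gathered in the same cells and others did not. In thinned endothelial-like cells with at least 5 UMIs of other members (the membrane factors left out), Ifit3 was 4.11- to 7.03-fold higher than in the rest of the cells over the 4 libraries, Ifit1 2.91- to 3.55-fold, Isg15 2.38- to 3.16-fold and Rsad2 2.23- to 2.63-fold. Irf1 was 0.80- to 1.08-fold and Ifi27 1.00- to 1.25-fold, with the higher Ifi27 values (1.24 and 1.25) in the libraries labelled EC-K4KO. These ratios are a description over cells of the same libraries and carry no test.

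Levels differed widely between cell classes. By the mean of the 4 libraries the sum was highest in monocyte-like cells (7167 CPM, range 5904 to 8345, from 13, 17, 14 and 54 cells), followed by ependymal-like (5722, 1435 to 10246), endothelial-like (5202, 4825 to 5770) and fibroblast-like cells (5107, 4125 to 6445). The ranges of these 4 classes overlap, except that the endothelial range lies below the monocyte range. Microglia-like cells had 1174 (768 to 1546), astrocyte-like cells 498 (351 to 703) and neuron-like cells 201 (116 to 289). Monocyte-like cells drew 75.8 to 90.8% of the sum from the membrane factors, and without them had 1107 CPM on average, under the 2495 of endothelial-like cells. Of the 33 members, 9 had their highest class mean in endothelial-like cells (Irf9, Stat2, Ifi35, Rsad2, Usp18, Ifih1, Irgm1, Gbp3 and Gbp7), 9 in monocyte-like and 8 in ependymal-like cells. The monocyte rank of Ifit2 and Oas1a rests on few counts, 0, 11, 0 and 0 UMIs for Ifit2 and 0, 1, 0 and 1 for Oas1a. The ependymal rank rests on the old libraries, since each of those 8 was below its endothelial level in both young libraries and above it in both old ones.

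**Figure D4:**
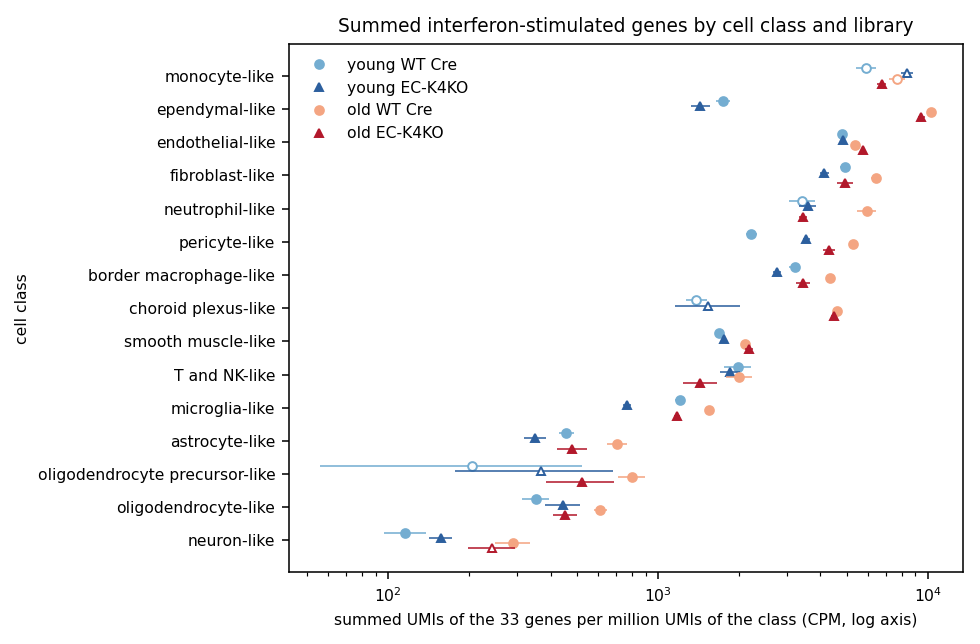
Summed CPM of the 33 members (log axis) in each cell class, 1 point per library, with open points for fewer than 20 cells. Ependymal-like cells show the widest gap between young (1435 and 1743) and old (9462 and 10246) libraries, while the endothelial points lie close together.

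Ependymal-like cells, the ciliated cells that line the ventricles, showed the widest age difference of any class with at least 20 cells in each library. Their sum was 1743, 1435, 10246 and 9462 CPM in 29, 20, 113 and 38 cells, a log2 ratio of 2.55 (2.47 to 2.64) in WT Cre and 2.72 (2.60 to 2.85) in the libraries labelled EC-K4KO. Of 26 members tested, 23 were higher and 0 lower with age, where 1.94% of the 7507 genes tested passed (1.6% higher), and DESeq2 called 20 members and 0.952% of genes. Most of the 26 met the minimum count only in some libraries, a filter that favours genes high in the old ones. Requiring the minimum in all 4 libraries left 6 members to test, and all 6 passed. With cells chosen by their own marker UMIs the class shrank to 3, 2, 1 and 4 cells and was not tested. This class holds under 50 cells in 3 libraries, and it and the members named in it were chosen after their values were seen.

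Isg15 in ependymal-like cells had 9, 2, 1154 and 319 UMIs, which is 13.4, 4.74, 772 and 838 CPM. Ifit3 was at 10.4, 14.2, 306 and 286 CPM. Isg15 and Ifit3 met the minimum count only through the old libraries, so no test is given for them. Bst2 was at 38.6, 56.9, 679 and 715 CPM (4.04 ± 0.22, adjusted p = 5.47e-04 in edgeR). Old libraries were more than 10-fold above the young ones for these 3 genes. Ifitm3 was at 1093, 797, 4240.2 and 3503 CPM (2.17 ± 0.15, adjusted p = 7.41e-04 in edgeR), Ifi27 at 227, 178, 1367 and 1779 CPM (3.06 ± 0.20, adjusted p = 7.41e-04) and Irf1 at 50.5, 138, 358 and 331 CPM (2.16 ± 0.35, adjusted p = 0.028). Ifi44 had 0, 0, 113 and 24 UMIs, which puts the old level at least 17.0-fold higher in WT Cre and at least 8.86-fold higher in the libraries labelled EC-K4KO, with a floor of 3 UMIs for each young library. Gbp2 was at 47.5, 40.3, 436 and 94.6 CPM, so the old WT Cre library was far above the old one labelled EC-K4KO, and Ifitm2 was at 44.6, 30.8, 18.7 and 5.26 CPM and did not pass (adjusted p = 0.20 in edgeR).

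Outside the list, the same cells showed 9 of 26 tested pathway genes higher with age, beside 1.6% of all genes, and none lower. The same filter favours genes high in the old libraries here, and with the minimum met in all 4 libraries 3 of 14 were higher. DESeq2 called 5 of the list higher and 0 lower, beside 64 and 2 of all genes. Cxcl10 was at 114, 152, 3937 and 2504 CPM. With the label none of the 26 members tested by edgeR passed, where 0% of genes passed. At an unadjusted p under 0.05 by edgeR there were 4 members, beside 369 of 7507 genes. DESeq2 called 6 genes with the label and none of 31 members, with 2 members unadjusted, beside 40 of 12508 genes. The summed ependymal markers were 9874, 11185, 7736 and 9946 CPM, endothelial markers 457, 600.2, 153 and 39.4 CPM, microglial markers 57.9, 49.8, 184 and 31.5 CPM and choroid plexus markers 382, 223, 459 and 239 CPM. The early-response genes were at 11405, 27196, 29638 and 26416 CPM, low in the young WT Cre library alone, and their part was not tested. After thinning, 0 of 29 and 0 of 20 young cells had at least 10 member UMIs, which allows shares of up to 11.9 and 16.8% (exact 95% intervals), against 40.7% of 113 and 44.7% of 38 old cells.

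**Figure D5:**
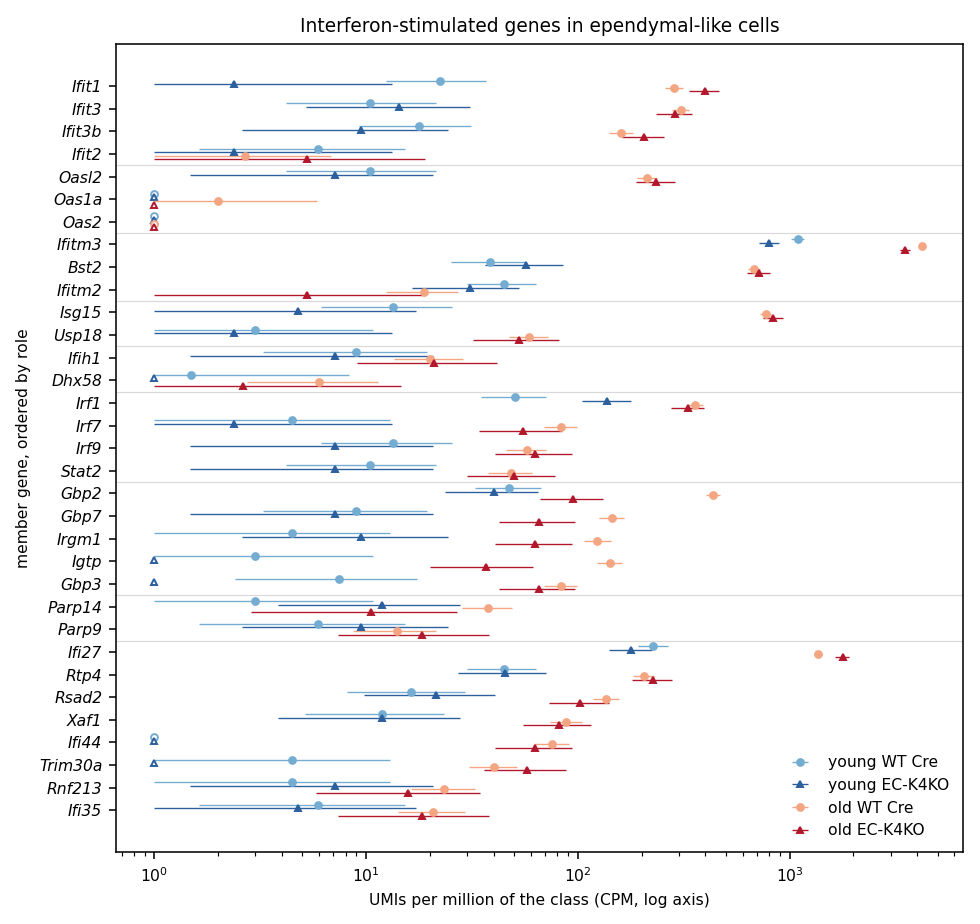
CPM of each member (rows, log axis) in ependymal-like cells, 1 point per library, with open points at the left edge for libraries without a UMI. The old libraries lie to the right of the young ones for Isg15, Ifit3, Bst2, Ifitm3, Ifi27 and Irf1, and Ifitm2 lies the other way.

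Microglia-like cells had a low sum of 1206, 768, 1546 and 1178 CPM, which was lower with the EC-K4KO label in both ages (log2 ratio -0.65, -0.73 to -0.57, in young and -0.39, -0.44 to -0.34, in old) and higher with age (0.36, 0.30 to 0.42, in WT Cre and 0.62, 0.55 to 0.68, in the libraries labelled EC-K4KO). With age 18 of 30 members passed, 17 higher and 1 lower, where 26.6% of all genes passed (15.8% higher and 10.8% lower), and DESeq2, at 14% of genes, called 4, all higher (Isg15, Bst2, Ifi27 and Rnf213). Members that met the minimum count only in the old libraries could be tested, which favours higher values, and with the minimum met in all 4 libraries 14 of 26 were higher and 1 lower. Isg15 was at 50.8, 14.3, 125 and 79.4 CPM (2.12 ± 0.18, adjusted p = 2.24e-09 in edgeR), Irf7 at 3.87, 2.20, 18.9 and 10.9 CPM (2.60 ± 0.34, adjusted p = 2.24e-06) and Ifitm3 at 101, 31.7, 168 and 187 CPM (1.91 ± 0.22, adjusted p = 4.48e-07). Old libraries were above both young ones for each of them. Gbp7 was the member that was lower, at 48.8, 72.7, 35.0 and 31.0 CPM (-0.54 ± 0.15, adjusted p = 0.0097 in edgeR). The 21 members of at least 10 CPM had a median ratio with age of 0.25 in WT Cre and 0.32 in the libraries labelled EC-K4KO, beside -0.27 and -0.32 over all genes.

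With the label 4 members passed in microglia-like cells, all lower, where 0.718% of genes passed (0.372% lower), and DESeq2, at 0.138% of genes, called 1 of them, Bst2. Bst2 was at 238, 72.7, 306 and 166 CPM (-1.23 ± 0.14, adjusted p = 2.93e-06 in edgeR), so each library labelled EC-K4KO was below the WT Cre library of its age. Isg15 had -0.99 ± 0.17 (adjusted p = 0.0020 in edgeR), Ifit3 had -1.01 ± 0.22 (0.020) and Irf1 had -0.63 ± 0.12 (0.0058). Irf1 was at 146, 114, 186 and 100.2 CPM and Ifit3 at 17.9, 7.44, 23.9 and 12.6 CPM. Border macrophage-like cells had a like pattern for Bst2 alone, at 786, 218, 1015 and 442 CPM (-1.59 ± 0.17, adjusted p = 6.08e-08 in edgeR), where 0.628% of genes passed with the label and 0.22% were lower. The summed endothelial markers in microglia-like cells were 411, 312, 138 and 159 CPM, and their part was not tested. Most young microglia-like cells lay in the P2ry12 and Gpr34 cluster (74.6 and 81.2% of the young class, 27.7 and 26.7% of the old) and the Ccl3 and Tnf cluster held 22.1, 17.4, 63.6 and 50% of the class over the 4 libraries, the largest share in each old one. Within the P2ry12 and Gpr34 cluster the sums were 1138, 751, 1399 and 1032 CPM, and within the Ccl3 and Tnf cluster 1381, 822, 1351 and 1087 CPM, so the libraries labelled EC-K4KO were lower than WT Cre of the same age in both. With age the WT Cre sum was higher within the P2ry12 and Gpr34 cluster and not within the Ccl3 and Tnf cluster, while that of the libraries labelled EC-K4KO was higher in both. The Spp1 and Cst7 cluster, genes of disease-associated microglia, had sums of 1164, 788, 2831 and 1411 CPM from 11, 8, 114 and 177 cells.

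Ifnb1, the gene of interferon beta, was counted in microglia-like cells with 2, 2, 50 and 26 UMIs, or 0.967, 0.551, 6.74 and 6.29 CPM, so it met the minimum count only through the old libraries, and no test is given. It had no UMI in the endothelial-, ependymal- or pericyte-like cells of any library. Of the pathway list, 58 genes could be tested by edgeR in microglia-like cells, and 19 were higher and 7 lower with age, beside 15.8% and 10.8% of all genes. With the minimum met in all 4 libraries, 15 were higher and 7 lower of 52. DESeq2 called 7 of the list higher and 2 lower, beside 652 and 116 of all genes. Cxcl10 was at 316, 364, 803 and 1016 CPM (1.74 ± 0.11, adjusted p = 9.80e-12 in edgeR).

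In the other classes fewer members passed. Smooth muscle-like cells had 5 of 25 members higher with age, where 6.06% of genes passed and 3.63% were higher, with Isg15 at 134, 125, 215 and 229 CPM (0.81 ± 0.12, adjusted p = 2.67e-07 in edgeR), besides Irf1, Ifitm3, Ifi27 and Parp14. Border macrophage-like cells had 5 of 27 higher, where 2.54% of genes passed and 1.49% were higher, with Isg15 at 57.7, 95.1, 243 and 204 CPM (1.63 ± 0.26, adjusted p = 5.96e-05), besides Irf7, Bst2, Ifitm3 and Oasl2. Bst2 and Ifitm3 passed among 13 members in astrocyte-like cells (0.884% of genes, 0.389% higher). There Bst2, at 6.93, 4.10, 38.3 and 15.3 CPM, met the minimum count only through the old libraries. Its pass is therefore not read as a result. Ifi27 passed among 6 members in oligodendrocyte-like cells (2.65% of genes, 1.48% higher). Requiring the minimum in all 4 libraries was tried only in endothelial-, microglia- and ependymal-like cells. Isg15 and Ifitm3 both passed as higher with age by edgeR in endothelial-, microglia-, ependymal-, smooth muscle- and border macrophage-like cells, although endothelial Isg15 had a CPM ratio of 0.05 in WT Cre, with an interval that includes 0. Whether the age difference differed between classes was not tested.

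Pericyte-like cells had sums of 2216, 3539, 5295 and 4312 CPM, yet none of 25 members passed with age by edgeR, where 0.0118% of genes passed. At an unadjusted p under 0.05 by edgeR there were 10 members, beside 619 of 8465 genes. Isg15 was at 35.6, 99.9, 432 and 226 CPM. A Ccl19 and Il6 cluster with sums of 4002, 5342, 7619 and 7867 CPM held 10, 31.3, 37.6 and 23.1% of that class, and the Vtn and Atp13a5 cluster had 1937, 2094, 3136 and 2653 CPM. Fibroblast-like and T and NK-like cells had 0 of 20 and 0 of 10 members passing with age by edgeR, beside 0 and 0.0477% of all genes. Unadjusted, 2 members passed in each, beside 316 of 5955 and 122 of 2097 genes. Choroid plexus-like cells were nearly all from old libraries (7, 1, 170 and 58 cells), with sums of 1388, 1538, 4614 and 4475 CPM, and could not be tested.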

How the data were processed

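Per the labels and the file headers, the authors aligned droplet single-cell reads to mouse mm10 (GRCm38) with Cell Ranger 6.0.2 and deposited filtered matrices of UMI counts per gene and cell, with Seurat named for later steps. The deposited counts were used as they are. Barcodes were kept from 500 genes and 1000 UMIs upwards, with mitochondrial UMIs up to 10%, and simulated-doublet scores removed 0.8% per 1000 cells of each library. Cells were clustered (scanpy 1.11.5, leidenalg 0.10.2, 2000 variable genes without the members and pathway genes, 30 components, 20 neighbours, resolution 1), and clusters were named "X-like" from fixed markers. Clusters that did not reach 3 markers, or held markers of another lineage, stayed unnamed and out of the classes.

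UMIs were summed per library and class. Log2 ratios of 2 libraries used an added 0.5 UMIs with exact conditional binomial 95% intervals, which cover counting error only, and named changes of 1.5-fold used genes of at least 10 CPM. The additive model of age and genotype label was fitted with edgeR 4.0.16 (TMM, R 4.3.3) over all genes, with Benjamini-Hochberg adjustment, and DESeq2 1.42.0 was an alternative whose missing adjusted p-values stayed out of its counts. The model was planned for classes of at least 50 cells per library and was extended after seeing the data to classes of at least 20. On simulated counts for the endothelial-like cells, the model recovered 97.5% of 200 genes changed by 1 log2 unit among 11824. The spread in that simulation was chosen, so it does not cover smaller changes or the real spread between mice. Cells were thinned to 1000 UMIs for shares, with exact (Clopper-Pearson) 95% intervals. Other tools were python 3.11.15, numpy 2.4.6, scipy 1.17.1 and matplotlib 3.10.9.

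Values per library are given for members that passed in the endothelial model, for the 3 highest and 3 lowest log2 ratios of each endothelial comparison and for the highest member of each role, while members named in other classes were chosen after their values were seen. The members and lists were chosen with earlier results of these data known. Of the pathway list, 3 symbols (Rigi, Mb21d1 and Sting1) are newer or older names of listed genes and were not matched separately. Promoter sequences were not found for 7 members. One gene of the pathway list is not reported here by name.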

Additional observations from a re-analysis of the deposited data

Results flagged for a closer look

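In endothelial-like cells, 2 members had label ratios of opposite direction in young and old libraries, with counting intervals on either side of 0. For Ifit3 the log2 ratio of the library labelled EC-K4KO over WT Cre was -0.53 (-0.62 to -0.44) in young and 0.27 (0.090 to 0.45) in old libraries. For Parp9 it was -0.13 (-0.25 to -0.010) in young and 0.31 (0.098 to 0.53) in old libraries. Each rests on 1 library per group, and the difference between the ages was not tested.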

How the results depend on the processing

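With 1 library per group, leaving out a library ends the test, and age within a label or label within an age has none. No paired analysis was possible because the groups compared share fewer than 2 replicate numbers. Classes rest on rebuilt clusters, and low members and the young ependymal-like cells (29 and 20) limit precision by depth.

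The log2 ratio of the endothelial sum between labels in young libraries (0.0058) was -0.0061 with a stricter cell filter, 0.023 without doublet removal, -0.039 with cells chosen by marker UMIs, -0.035 without the Ackr1-led cluster, 0.058 with TMM factors, -0.041 with cells weighted equally and -0.16 without Ifitm3, Ifitm2 and Bst2. Between labels in old libraries (0.10) it was 0.13 by marker UMIs, 0.020 without the Ackr1-led cluster, 0.046 with equal weights and 0.015 without the membrane factors. With age in WT Cre (0.15) it was 0.12, 0.11, 0.060 and -0.15 in the same order, the last with the opposite sign, and 0.29 with TMM factors. With age in the libraries labelled EC-K4KO (0.25) it was 0.29, 0.17, 0.15 and 0.019 in that order, 0.33 with TMM factors, 0.28 with the stricter filter and 0.24 without doublet removal. The median with age in WT Cre (-0.30) was -0.17 with TMM factors.

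Of endothelial counts, 14 members with age became 6 with DESeq2, and 0 with the label became 1 by marker UMIs, 2 at resolution 0.5 and 5 with no filter on low counts. In microglia-like cells 18 with age became 4 with DESeq2, and 4 with the label became 7 without doublet removal and 1 with DESeq2. In ependymal-like cells 23 with age became 6 when the minimum had to be met in all 4 libraries, where 6 could be tested, and 0 with the label became 2 with no filter. The shares of endothelial-like cells were 11.2, 10.01, 12.9 and 15.5% at 9 UMIs, 5.37, 4.69, 6.08 and 7.95% at 11 UMIs, and 1.76, 0.722, 1.02 and 1.05% at 10 UMIs without the membrane factors. The ependymal sum with age in WT Cre (2.55) was 2.33 with the stricter filter, 2.77 with TMM factors and 3.22 without the membrane factors, and in the libraries labelled EC-K4KO (2.72) it was 2.58 with the stricter filter, 2.92 without doublet removal and 3.25 without the membrane factors. Except where members or cells were removed by construction, the cause was not tested.

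Of 126 single-member endothelial age values, 109 stayed on their side of the threshold and 17 lost it, among them Ifit2, Oas2, Irgm1, Gbp2 and Gbp7 with DESeq2, and Ifit1 passed in 5, Irf7 in 6 and Oasl2 in 7 of 10 settings. In microglia-like cells 121 of 135 age values and 28 of 32 label values stayed, and in ependymal-like cells 140 of 144. No single-member value changed sign. The settings without the Ackr1-led cluster, with the minimum in all 4 libraries, and all of those in microglia-like and ependymal-like cells were chosen after seeing the data.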
